A study of Mus musculus with 2 samples.

Results

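Very wide shared regions are merged stretches of 800 bp or more with open-chromatin peaks of both of 2 DNase-seq libraries of embryonic mouse liver. They were chosen from the measured peaks: the longer deposited peak list of each library was merged with the other wherever peaks overlapped by at least 1 bp, and a merged region was kept if it held peaks of both libraries and was 800 bp or wider. This left 701 of 45831 shared regions, or 1.53%, out of 99252 merged regions in all, and they held 5.37% of the length of the shared regions. The other 45130 shared regions were 51 to 797 bp wide. All widths are those of merged regions, and neither library had to span a region alone.

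Both libraries came from liver at embryonic day 13.5 on a mixed C57BL/6N,129 background, labelled wild type with several copies of A85, a YAC (an artificial chromosome built in yeast). Both libraries of the study thus share the YAC, and no source used here gives its insert. The libraries form 1 group of 2 biological replicates made from separate tissue samples under the same donor label, and sex was not collected. No other condition is labelled, so very wide regions were set beside narrower ones and replicate 1 beside replicate 2. These are descriptions without tests, because both libraries had chosen the regions.

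DNase I cuts DNA where nucleosomes are moved aside, so clusters of cuts mark promoters, enhancers and other control elements. Many mammalian promoters lie in CpG islands, stretches rich in G, C and the dinucleotide CG that are mostly free of DNA methylation and tend to be open in many tissues. Within an open region, a protein bound to DNA shields a short stretch from cutting, which is called a footprint. The fetal liver is the main site of red blood cell formation at this age and also holds hepatoblasts, the precursors of the liver's own cells. The GATA, ETS, SP/KLF, NF-Y and NRF1 factors, with bHLH, AP-1 and RUNX proteins, bind short motifs that are searched for below.

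The sequences below come from the highest replicate 1 peaks of 5 very wide regions, shown because they stand for the kinds of regions described here: a promoter with a high value (Cic), a red cell regulator (Tal1), distal regions with a high value (near Mvb12b and near Pxt1) and the region that differed most between the replicates (Slc3a2). They are read 5′ to 3′ from the plus strand of mm10 (GRCm38.p6), are at most 300 bases long, and leave out bases annotated as UTR. Capitals mark matches on either strand to the motifs that were searched. For the GATA factors these were AGATAA or, with another first letter, TGATAA. For ETS factors the motif was CCGGAA, for SP and KLF proteins it was GGGCGG, and for the promoter factor NF-Y it was CCAAT. The E-boxes of bHLH proteins were CAGCTG or, in its other common form, CACGTG. The core of the NRF1 motif was GCATGCG, that of the AP-1 proteins was TGACTCA, and that of RUNX proteins was TGTGGT. A match describes letters only.
Cic, chr7:25267971-25268270: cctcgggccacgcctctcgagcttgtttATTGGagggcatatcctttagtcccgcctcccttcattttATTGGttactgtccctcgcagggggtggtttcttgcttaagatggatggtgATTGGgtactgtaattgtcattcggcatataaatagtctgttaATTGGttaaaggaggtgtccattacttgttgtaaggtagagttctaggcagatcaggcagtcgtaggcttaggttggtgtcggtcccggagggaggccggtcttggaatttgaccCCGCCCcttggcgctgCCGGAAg
Tal1, chr4:115057261-115057437: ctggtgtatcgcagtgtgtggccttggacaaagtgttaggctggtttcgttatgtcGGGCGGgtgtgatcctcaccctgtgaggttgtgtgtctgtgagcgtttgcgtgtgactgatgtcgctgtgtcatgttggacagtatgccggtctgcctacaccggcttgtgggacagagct
near Mvb12b, chr2:33843241-33843520: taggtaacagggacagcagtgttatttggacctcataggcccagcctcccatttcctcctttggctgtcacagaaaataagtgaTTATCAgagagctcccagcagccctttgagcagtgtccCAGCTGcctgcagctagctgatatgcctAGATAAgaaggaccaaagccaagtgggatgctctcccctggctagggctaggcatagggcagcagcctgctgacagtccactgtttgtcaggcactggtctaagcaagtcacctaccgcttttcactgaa
near Pxt1, chr17:28930401-28930640: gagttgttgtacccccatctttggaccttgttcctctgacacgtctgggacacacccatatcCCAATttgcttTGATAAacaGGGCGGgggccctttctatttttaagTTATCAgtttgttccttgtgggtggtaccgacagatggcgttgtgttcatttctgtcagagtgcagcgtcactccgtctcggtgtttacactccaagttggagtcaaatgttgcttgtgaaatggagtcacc
Slc3a2, chr19:8715301-8715500: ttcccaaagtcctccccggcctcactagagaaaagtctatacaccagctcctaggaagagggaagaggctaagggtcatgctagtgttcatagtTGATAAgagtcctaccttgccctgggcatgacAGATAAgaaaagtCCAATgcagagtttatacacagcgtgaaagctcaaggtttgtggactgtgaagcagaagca
The Cic stretch held CCAAT 4 times and no GATA motif. The Tal1 stretch held GGGCGG 1 time and no GATA motif either. The stretches near Mvb12b, near Pxt1 and at Slc3a2 each held 2 GATA motifs, counting AGATAA and TGATAA together. Of other stretches taken in the same way, those near Ormdl3 and at Slc41a3 held 1 each. Those at Zfpm1, at Bcl11a and near Tspan4 held 0.

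Replicate 1 had 76130 peaks and replicate 2 had 73852 peaks in the lists used, with a median width of 200 bp in each. Only 78 peaks of replicate 1 but 575 of replicate 2 were 800 bp or wider, and the widest peak measured 1320 bp in replicate 1 and 2620 bp in replicate 2. Peak values are the deposited signal, whose scale is not stated. Within a library all values were whole multiples of 1 step, so each could be read as a count, with a median count per peak of 69 in replicate 1 and 126 in replicate 2. The red cell markers Gata1, Klf1, Tal1, Slc4a1, Epor and Tfrc each had a shared region at the promoter, as did 2 of 6 hepatoblast markers (Afp and Foxa3), 1 of 4 megakaryocyte, 1 of 4 endothelial, 2 of 4 mesenchymal, 2 of 3 neural, 0 of 5 macrophage and 0 of 3 muscle markers. Alb, Ttr and Hnf4a had none. In bulk tissue, a region open in fewer cells and one that is less open in each cell cannot be told apart.

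The 701 regions had a median width of 940 bp, and the widest measured 2640 bp. They lay on all 21 chromosomes. Several regions lay just inside the limit, at exactly 800 bp. Among them were regions at the Arid1b promoter, with values of 1.49 in replicate 1 and 2.05 in replicate 2, at the Sash1 promoter (1.15 and 1.32) and between genes near Ripor2 (0.797 and 1.07), and the one near Mvb12b stood far higher, at 7.01 and 3.41. Just outside it were regions of 797 bp near Arhgef40 (1.42 and 1.51), 796 bp at Zfp296 (1.19 and 1.04) and 796 bp near Fam213a (1.49 and 0.978).

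Most of the regions were built from several peaks. The median was 2 constituent peaks in each replicate, with up to 7 in replicate 1 and up to 5 in replicate 2. In replicate 1, 173 regions held 1 peak, 367 held 2, 132 held 3 and 29 held 4 or more. In replicate 2, 122 held 1 peak, 400 held 2, 149 held 3 and 30 held 4 or more. Among the other shared regions 97.1% held 1 peak in replicate 1 and 97.5% in replicate 2.

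Peaks of the same deposited list overlapped each other within some of these regions. What an overlapping peak of the same list stands for could not be settled from the files. Such overlap was present in 26.4% of very wide regions against 1.00% of other shared regions in replicate 1, and in 65.8% against 1.81% in replicate 2. A single peak of 800 bp or more was present in 75 regions in replicate 1 and in 357 in replicate 2, and in 404 in either. The rest were chains of narrower peaks.

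Replicate 2 set most of the widths. Its peaks covered a median of 95.7% of a region and those of replicate 1 covered 67.1%, and 521 regions were covered more in replicate 2 against 170 covered more in replicate 1. The peaks of both replicates spanned 800 bp on their own in 247 regions, those of replicate 2 alone in 287, those of replicate 1 alone in 95 and those of neither in 72. When regions were merged from the peaks of 1 library, replicate 2 alone (without replicate 1) gave 648 very wide regions and replicate 1 alone (without replicate 2) gave 98. No peak of the other library was required there, so these regions are not subsets of the 701. By the spans above, the count of 701 rests mostly on replicate 2. The share at promoters, given below for the 701, was 72.4% in the regions merged without replicate 1 and 85.7% in those without replicate 2. Whether depth, fragment length or the tissue sample sets the difference in peak width was not tested.

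**Figure D1:**
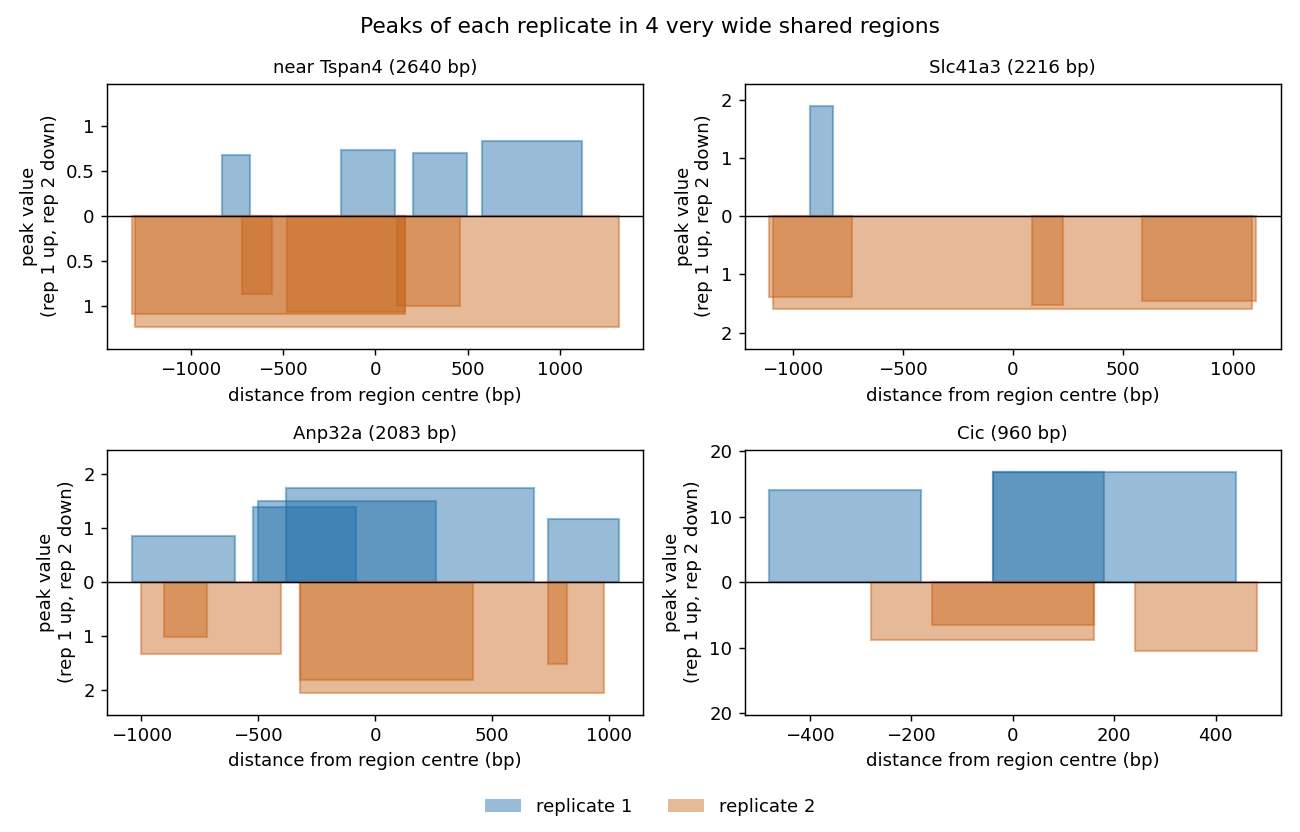
Peaks of replicate 1 (blue, upward) and replicate 2 (orange, downward) in 4 very wide shared regions, with the distance from the region's centre in bp on the horizontal axis and the peak value on the vertical axis. Near Tspan4 and at Slc41a3 single peaks of replicate 2 spanned 2620 and 2180 bp where replicate 1 had narrow peaks, while at Anp32a the peaks of both replicates covered most of the 2083 bp.

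The plot of peak maps shows both kinds of width. At the Anp32a promoter (chr9:62341721-62343803), a gene for an acidic nuclear phosphoprotein, 5 peaks of replicate 1 covered 1943 bp and 5 of replicate 2 covered 1900 bp, with values of 1.75 and 2.05. At the Slc41a3 promoter (chr6:90618185-90620400), a gene of a magnesium transporter family, the only peak of replicate 1 was 104 bp wide, with a value of 1.90. There replicate 2 had a peak of 2180 bp, with a value of 1.59, and 3 narrower ones overlapping it. The whole region held 2 footprints in replicate 1 and 29 in replicate 2.

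The widest region lay in an intron 14552 bp from the closest start of Tspan4, a tetraspanin gene, at chr7:141506041-141508680. Its highest values were low, at 0.835 in replicate 1 and 1.23 in replicate 2. Replicate 1 had 4 separate peaks there, covering 1279 bp, and 1 of the 5 overlapping peaks of replicate 2 was 2620 bp wide. The sequence of this region was a tandem repeat, of which the stretch below, from the widest replicate 1 peak, is shown. Capitals mark its commonest word of 14 bases, which occurred 7 times in the 300 bases and 36 times in the 2640 bp, on the plus strand.
near Tspan4, chr7:141508060-141508359: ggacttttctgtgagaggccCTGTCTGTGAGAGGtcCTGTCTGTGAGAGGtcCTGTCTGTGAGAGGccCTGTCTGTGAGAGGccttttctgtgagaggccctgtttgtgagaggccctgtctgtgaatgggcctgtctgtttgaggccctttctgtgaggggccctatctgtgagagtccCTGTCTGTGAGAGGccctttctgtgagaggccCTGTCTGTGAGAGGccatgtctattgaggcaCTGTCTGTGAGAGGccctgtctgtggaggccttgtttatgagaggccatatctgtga
In the 1 kb around the centre of this region, 61.5% of all 20-base words occurred more than once. This check was added after the sequence had been seen. Only 4 of the 701 very wide regions (0.571%) had over 10% of such words, against 565 of the 45130 other shared regions (1.25%). The other three were near Tchh, with 27.5%, near Gm21860 on chromosome Y, with 18.3%, and at Tspan32, with 11.2%. No source used here gives how reads with several matching places were treated, and what repeats did to these widths was not tested.

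The other regions among the 10 widest were mostly promoters. They were at Ptch1, the Hedgehog receptor gene (2060 bp), Chst15, a chondroitin sulfate sulfotransferase gene (2036 bp), Inppl1, an inositol phosphatase gene (2035 bp), Dgkz, a diacylglycerol kinase gene (2016 bp), and Slc38a1, a glutamine transporter gene (1980 bp). Their values lay between 0.975 and 2.39 in replicate 1 and between 0.918 and 1.65 in replicate 2. Chst15 held the most peaks of any very wide region, 7 in replicate 1 and 5 in replicate 2. An exonic region of 2020 bp near Ormdl3, a regulator of sphingolipid synthesis, stood higher, at 4.35 and 3.02. Another exonic region, of 1980 bp near Zfpm1, held a 78 bp peak in replicate 1 with a value of 0.797, against 5 peaks over its whole width in replicate 2 with a value of up to 0.748.

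Of the very wide regions, 537 (76.6%, 95% Wilson interval 73.3 to 79.6%) lay within 1 kb of a transcript start of a protein-coding gene, against 43.1% of other shared regions (42.6 to 43.5%). A wide region reaches a start more easily than a narrow one. By the region's middle alone, the shares were 70.8% (67.3 to 74.0%) and 41.8% (41.3 to 42.3%). Since most of the narrower regions were much shorter, width classes were compared as well. The promoter share was 19.2% in regions of up to 200 bp, 52.0% at 201 to 300 bp, 63.7% at 401 to 500 bp and 77.0% at 701 to 799 bp. Within the very wide regions it was 75.3% at 800 to 999 bp, 80.5% at 1000 to 1199 bp and 75.9% at 1200 bp and more, with overlapping intervals. The share thus changed little across the limit of 800 bp.

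**Figure D2:**
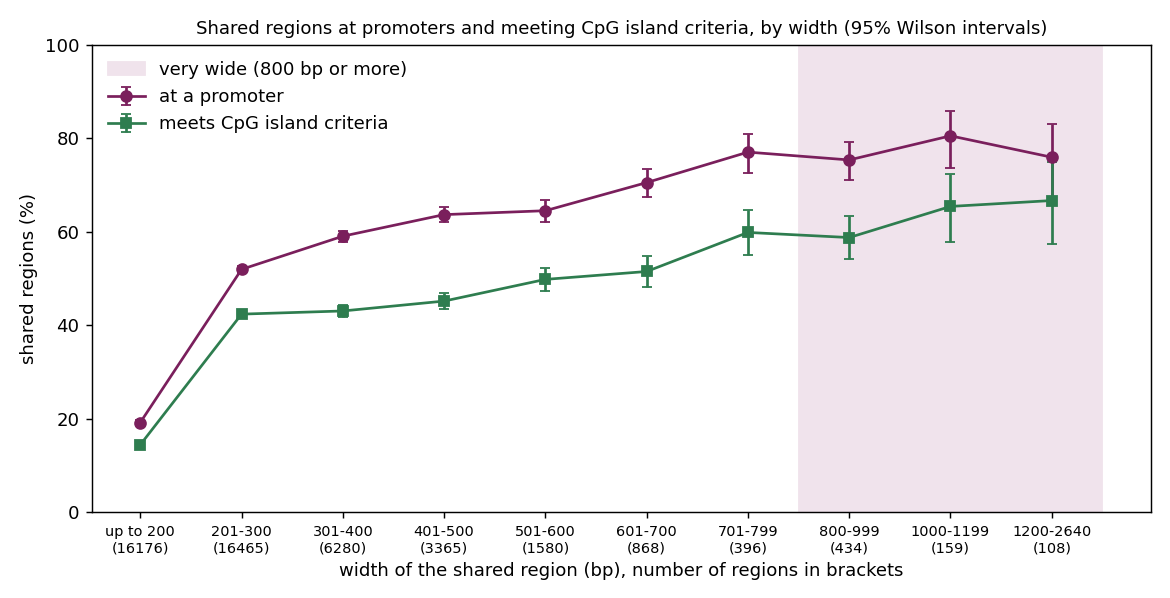
Share of shared regions at promoters (circles) and of shared regions that meet CpG island criteria (squares) by width class in bp, with 95% Wilson intervals and the number of regions in brackets. Both shares were higher in wider classes up to 701 to 799 bp, at 77.0% and 59.8%, and the 3 very wide classes (shaded) lay between 75.3% and 80.5% and between 58.8% and 66.7%.

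The remaining 164 regions (23.4%) were distal: 73 intergenic, 62 in introns and 29 in exons, which makes 10.4%, 8.84% and 4.14% of all very wide regions. Among other shared regions these shares were 29.3%, 23.0% and 4.64%. The distal very wide regions lay a median of 9852 bp from the closest protein-coding start, with 82 within 10 kb and 27 farther than 50 kb. Of these, 18 lay within 1 kb of the start of a long non-coding RNA. Over all very wide regions 17.0% lay that close to such a start (14.4 to 19.9%), against 8.16% of other shared regions (7.91 to 8.42%). These shares pool promoter and distal regions, whose mix differed as given above. Here too a wide region reaches a start more easily than a narrow one.

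Promoter regions with starts of 1 gene inside mostly reached farther into the gene than away from it. A protein-coding start lay inside 341 of the 537, of which 325 held starts of 1 gene and 16 held starts of 2 genes. In 11 of them the starts pointed away from each other. In the regions with starts of 1 gene, the region extended a median of 265 bp upstream of the first start inside it and 507 bp downstream of the last, and 218 reached farther downstream against 107 farther upstream. Narrower promoter regions were not set beside these for the reach. The highest peak lay within 200 bp of a start in 43.8% of very wide promoter regions against 63.7% of narrower ones in replicate 1, and in 41.7% against 64.0% in replicate 2.

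Very wide regions were at the promoters of 560 of 21884 protein-coding genes (2.56%), or 4.38% of the 12774 genes that had any shared region there. Of 407 genes on 16 lists chosen with earlier results of these data known, 23 had one. The lists are small. The 4.38% stands beside counts over listed genes with any shared promoter region, and the 2.56% beside counts over all listed genes.

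Among 24 erythroid transcription factor genes, all of which had a shared promoter region, 3 had a very wide one. Tal1, a bHLH factor of early blood and red cells, had a region of 1180 bp over its start (chr4:115056921-115058100) with values of 2.48 in replicate 1 and 2.51 in replicate 2. Zfpm1, which encodes the Gata1 cofactor Fog1, had a region of 1500 bp with values of 0.595 and 0.857, and the exonic region of 1980 bp described above lay 380 bp beyond it. Bcl11a, a repressor of fetal globin genes in humans, had 2 very wide regions of 900 and 1320 bp, 1920 bp apart, with values of 1.48 and 2.41 in the one and 1.39 and 1.98 in the other. The values of all 4 regions were far below the highest of the set.

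Red cell effector genes had 3 in all. Of 24 red cell membrane and receptor genes, each with a shared promoter region, Add2, the beta-adducin gene of the membrane skeleton, had a region of 960 bp with values of 1.22 and 1.12. Of 23 genes of heme synthesis and iron, 21 had a shared promoter region and 2 a very wide one. Alad, a heme synthesis enzyme gene, had a region of 800 bp with values of 1.35 and 2.19, and Ftl1, the ferritin light chain gene, one of 900 bp with values of 1.19 and 0.736. In the Ftl1 region replicate 1 covered 92 bp and replicate 2 all 900 bp. None of the 9 globin genes had one, although 5 had a shared promoter region.

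Of 29 hepatoblast and liver genes, 14 had a shared promoter region and 2 a very wide one, both for transcription factors. The Cebpa region (860 bp) stood at 0.570 in replicate 1 and at 0.893 in replicate 2. The Hhex region (860 bp) had 1.91 and 0.730, with 7 footprints in replicate 1 and 0 in replicate 2. The highest values of the replicates thus differed in opposite directions at the 2 genes. At each gene these values came from peaks of the replicates that overlapped only in part.

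Immediate early and signal feedback genes had 5 among 50, all with a shared promoter region. They were Ier5, an immediate early response gene (1.66 and 2.11), Spred2, an inhibitor of Ras signalling (2.13 and 2.35), Smad6 (0.924 and 1.18) and Smad7 (1.32 and 1.42), inhibitory SMADs, and Gadd45g, a stress and growth arrest gene (1.58 and 2.04). Each value was higher in replicate 2 before centring. Chromatin and RNA genes had 3 among 34, of which 33 had a shared promoter region: Dnmt3a, a DNA methyltransferase gene (0.595 and 1.03), Chd4, a nucleosome remodeller gene (0.911 and 1.24), and Arid1a, a BAF complex gene (0.696 and 0.718).

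Among general housekeeping genes, the Actg1 cytoplasmic actin gene had a region of 1700 bp with values of 1.94 and 2.43. Cell cycle genes had 2 among 30, each with a shared promoter region, Cdk6, a G1 kinase (1.15 and 1.39), and Cdkn2c, an inhibitor of that kinase (1.77 and 2.22). The endothelial list held 19 genes, 4 of them with shared promoter regions and 1 with a very wide one (Egfl7, 1.03 and 1.88). The stellate and mesenchymal list held 20, 9 of them with shared promoter regions and 2 with very wide ones (Reln, 1.19 and 1.51, and Vim, 1.05 and 1.04). None of the macrophage, megakaryocyte, neural, muscle or polycomb-type developmental genes had a very wide one. Shared promoter regions were present at 3 of 20 macrophage, 7 of 18 megakaryocyte, 12 of 20 neural, 4 of 18 muscle and 19 of 50 polycomb-type genes.

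Genes with 2 very wide regions at their promoters were Jmjd1c, Sppl2b, Plxnc1, Patz1, Bcl11a, Rnd2, Sdc1, Pik3r1, Adcy6, Sgms1, Nol4l, Tnik, Pcdh7, Foxp1, Fam53b and 1190002N15Rik. In Jmjd1c, Pik3r1, Sgms1 and Foxp1 they lay far apart, at different starts of the gene. In 20 cases neighbouring very wide regions lay within 5 kb of each other, such as 20 bp apart at Tnik, 60 bp at Plxnc1, Sdc1 and 1190002N15Rik, and 0 bp where a region near Gse1 abutted that at the Gse1 promoter.

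Pooled over promoter and distal regions, very wide regions had median values near those of other shared regions, and few stood among the highest. The highest peak of a very wide region had a median value of 1.25 in replicate 1 and 1.34 in replicate 2, against 1.46 and 1.24 for other shared regions. The direction of this difference was not the same in the replicates. In replicate 1 the ratio of the very wide to the other median was 0.861. Merged from replicate 1 alone, without replicate 2, very wide regions stood at a ratio of 1.29. That ratio was to all narrower regions of replicate 1, shared or not, so the regions compared were not the same. Very wide values ranged from 0.228 to 16.9 in replicate 1 and from 0.223 to 10.5 in replicate 2. Other shared regions reached 157 and 126. Only 5 very wide regions in replicate 1 (0.713%) and 4 in replicate 2 (0.571%) were among the upper 10% of all shared regions.

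Promoter and distal regions differed. Very wide promoter regions had a median of 1.19 in replicate 1 against 2.73 for narrower promoter regions, and 1.40 against 2.50 in replicate 2. Very wide distal regions stood the other way, at 1.65 against 1.14 for narrower distal regions in replicate 1 and 1.18 against 0.911 in replicate 2. Regions of 400 to 799 bp lay close to the very wide ones, with 1.48 and 1.62 at promoters and 1.52 and 1.06 at distal sites. In counts, the medians of very wide regions were 99 in replicate 1 and 222 in replicate 2.

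**Figure D3:**
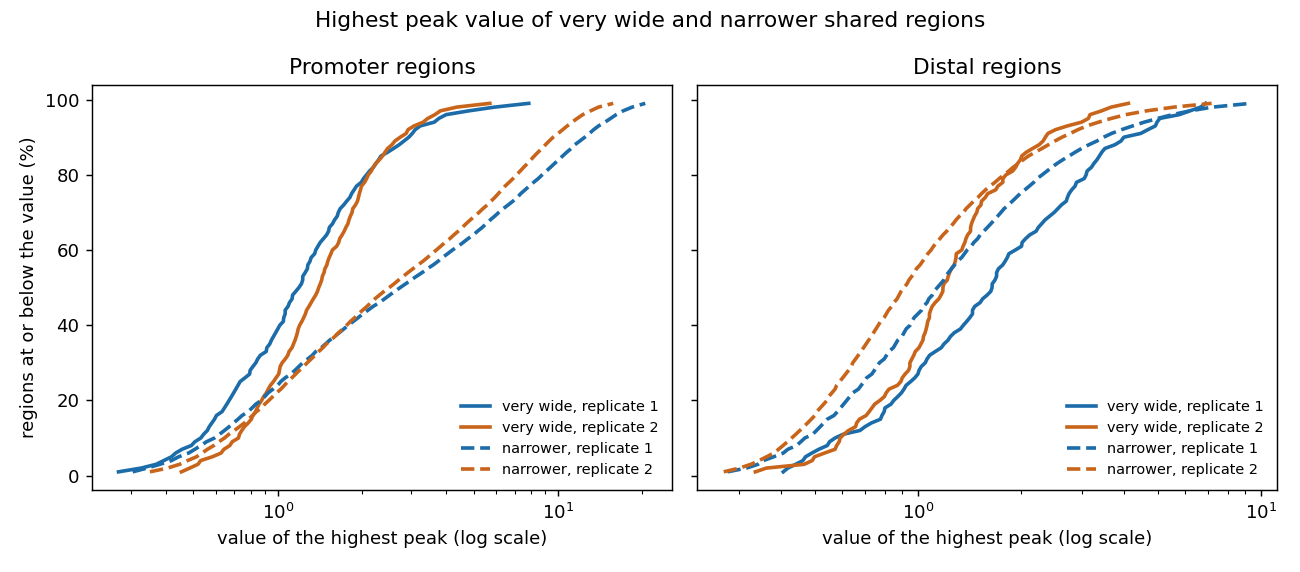
Value of the highest peak (horizontal, log scale, deposited signal) against the percentage of regions at or below it, for promoter regions (left) and distal regions (right), very wide (solid) and narrower (dashed), in replicate 1 (blue) and replicate 2 (orange). Very wide promoter regions lay left of narrower ones above the lowest values, with medians of 1.19 and 1.40 against 2.73 and 2.50, and very wide distal regions lay to the right around the median, at 1.65 and 1.18 against 1.14 and 0.911.

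The highest promoter value belonged to Cic, the gene of the repressor Capicua, at chr7:25267441-25268400. It had 16.9 in replicate 1 (1332 counts) and 10.5 in replicate 2 (1736 counts). The region extended 263 bp upstream and 13 bp downstream of the first and last start inside it and held 14 and 26 footprints. Sp1, the gene of a factor that binds GC-rich boxes, followed at 16.0 and 8.61, and a region over starts of Lpxn and Zfp91 at 10.5 and 7.39. Hist1h1c, a linker histone gene, had 7.86 and 6.45 and Tmed1, a gene of vesicle traffic, 6.67 and 6.92. All of these values were above the medians of narrower promoter regions.

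The highest distal value, 8.06 and 4.53, was that of an intergenic region of 1000 bp, 51881 bp from the closest start, that of Zfp958. An intronic region of 800 bp, 42985 bp from the Mvb12b start, had 7.01 and 3.41. It held 0.375 CG per 100 bases, and its printed stretch held 2 GATA motifs. The intergenic region near Pxt1 (820 bp, 11224 bp from its start) had 6.20 and 3.18. Exonic regions near Tmem184a, with 6.83 and 4.03 over 1960 bp, and near Kdm6b, a histone demethylase gene, with 6.82 and 3.59, were also among the 8 highest. All these distal values were higher in replicate 1 before centring.

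Most very wide promoter regions had another shared region at a promoter of the same gene, and the highest of these was usually higher. Such a region existed for 426 of the 537 (79.3%), and for 345 (64.2%, 60.1 to 68.2%) one was higher in both replicates, against 40.1% (39.4 to 40.8%) of narrower promoter regions. The median gap to the closest was 222 bp against 301 bp for narrower promoter regions, and for 331 of the 426 it was at most 500 bp. The closest region need not be the higher one, and some lay far away at other starts of the gene. Of the 196 very wide promoter regions with no start inside, 181 (92.3%) had a higher one, against 70.7% of such narrower regions. Of the 341 with a start inside, 164 (48.1%) did, against 20.7%. All these shares also depend on the region's own value, whose median was lower at very wide than at narrower promoters, as given above. The highest other values had slightly lower medians than those beside narrower promoter regions in both replicates, at 3.71 against 3.80 in replicate 2. Regions were not matched by value here, so the shares do not show whether a higher neighbour goes with width itself.

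**Figure D4:**
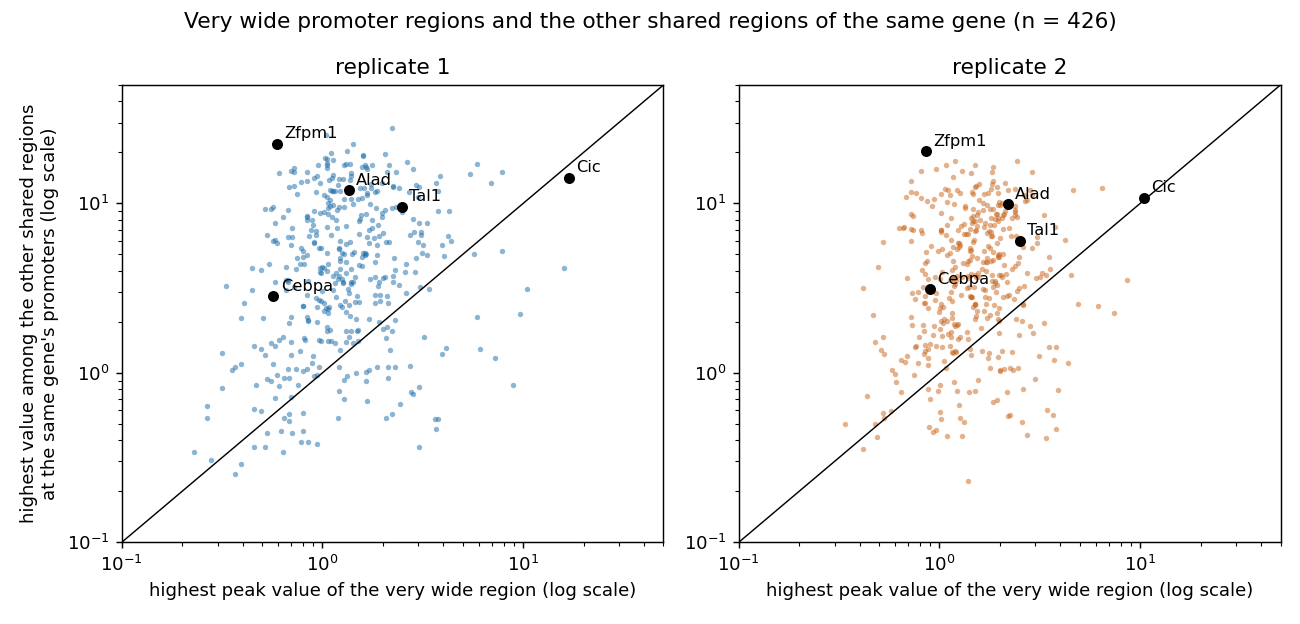
Highest peak value of 426 very wide promoter regions (horizontal, log scale) against the highest value among the other shared regions at promoters of the same gene (vertical, log scale), in replicate 1 (left) and replicate 2 (right), with the line of equal values. Most points lay above the line, for example Zfpm1, with 0.595 and 0.857 for the very wide region against 22.5 and 20.3.

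Several listed genes had a very wide promoter region and a higher shared region at a promoter of the same gene. At Zfpm1 the very wide region had 0.595 in replicate 1 and 0.857 in replicate 2, against 22.5 and 20.3 in the highest other region, and the closest other one was 1400 bp away. At Tal1 it had 2.48 and 2.51 against 9.58 and 6.03, with a gap of 100 bp. At Alad the values were 1.35 and 2.19 against 11.9 and 9.91, and at Cebpa 0.570 and 0.893 against 2.84 and 3.11. In these 4 genes the very wide region had the lower value and another region of the same gene the higher, in both replicates. Of the Bcl11a regions, the one of 900 bp had 1.48 and 2.41 against 1.77 and 2.07, so that it was the lower in replicate 1 alone. Sp1 was an exception, with 16.0 and 8.61 against 4.16 and 3.53, and Cic stood at 16.9 and 10.5 against 14.2 and 10.8 in a region 10300 bp away.

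Footprints were sparser per kb in very wide regions than in other shared regions as a whole, though the median number per region was higher. Over their total length they held 3.53 footprints per kb in replicate 1 and 8.23 in replicate 2, against 9.45 and 12.4 in other shared regions. The medians were 2.50 and 8.16 per kb against 9.38 and 12.5. Per region, the medians were 3 footprints in replicate 1 and 8 in replicate 2, against 2 and 3 in other shared regions. The length is that of the whole merged region, which the peaks of a replicate need not cover. Regions just under the limit were about as sparse: the medians were 2.70 and 8.11 at 701 to 799 bp, and 2.50 and 7.95 at 800 to 999 bp. The count of footprints differed between the libraries as well: 569 regions had more per kb in replicate 2 and 78 had more in replicate 1, and replicate 2 had 230992 footprints in all against 151079 in replicate 1. Both had footprints in 493 regions and neither in 29.

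Footprints also recurred less between the replicates than in other shared regions, most of which were much narrower. These shares do not show whether this was particular to very wide regions. Of those of replicate 1 in very wide regions, 40.2% overlapped one of replicate 2, against 65.8% in other shared regions. Of those of replicate 2, 16.8% overlapped one of replicate 1, against 48.0%. Counting only footprints found in both replicates, very wide regions held 1.42 per kb by replicate 1 and 1.39 by replicate 2, which are close by construction.

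Footprints per kb also rose with the peak value, so regions were set side by side in 4 ranges of value, set so that each held about as many very wide regions. In the lowest, very wide promoter regions had 1.17 footprints per kb against 1.84 in narrower ones in replicate 1, and 6.58 against 6.85 in replicate 2, over the total length. The medians there stood the other way, at 1.02 against 0 and 6.87 against 6.85. In the highest they had 6.53 against 16.0 and 11.9 against 18.5. That range is wide, from 1.84 in replicate 1 and 1.96 in replicate 2 upward, and narrower regions fill its upper end. In distal regions the gap was present in every range, from 1.84 against 4.61 in the lowest to 6.67 against 13.8 in the highest in replicate 1.

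**Figure D5:**
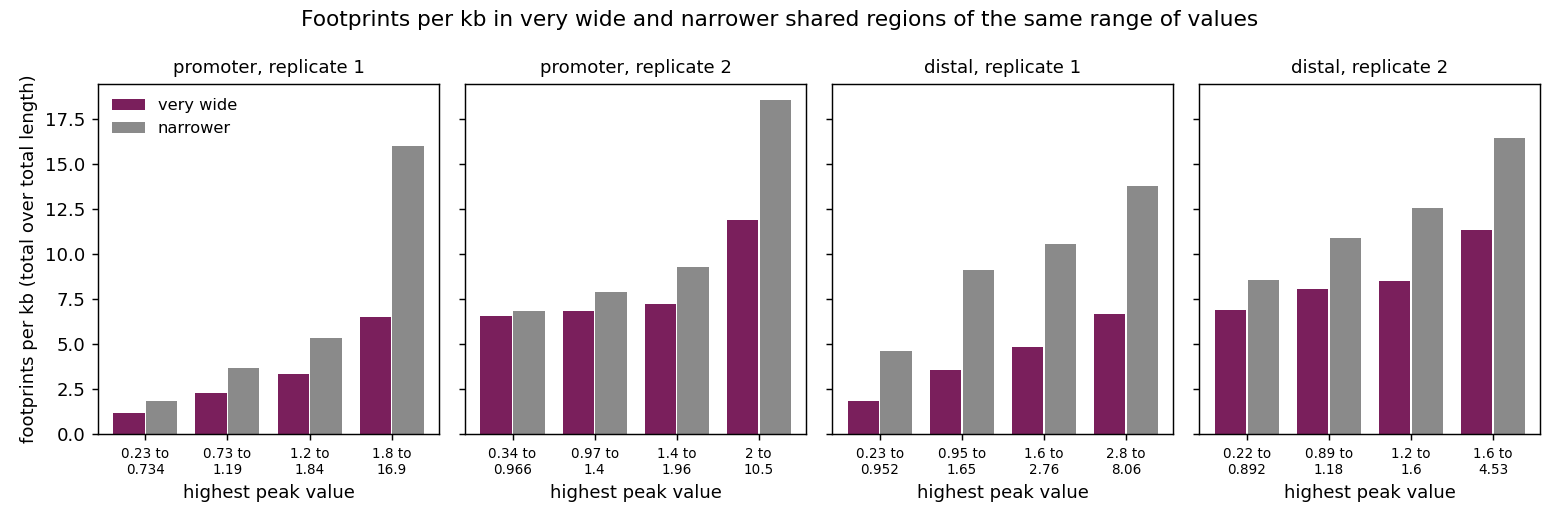
Footprints per kb (total over total length, from 0) in very wide (purple, left) and narrower (grey, right) shared regions, in 4 ranges of the highest peak value, for promoter and distal regions in each replicate. The bars of very wide regions were the lower ones in all 16 pairs, by the least at the lowest promoter values of replicate 2 (6.58 against 6.85) and by more at the highest (11.9 against 18.5).

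The extremes were named by the lower and by the higher of both replicates. The densest regions held 15 to 18 footprints in each replicate: an intergenic one of 800 bp near Tmem29 (17 and 15), the promoters of Ncoa7, a nuclear receptor coactivator gene (15 and 17), Ppp2r3d (15 and 16) and Rap1a, a small GTPase gene (17 and 15), and an exonic one near Clec11a, a haematopoietic growth factor gene (18 and 15). The widest regions with none in either replicate were at the promoters of Phlpp1 (1140 bp), Ppp2r5b (1120 bp), Cnnm2 (1085 bp), Mid1ip1 (1060 bp) and Epb41l4a (1040 bp). Their values were 0.316 to 1.13 in replicate 1 and 0.513 to 1.52 in replicate 2.

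In sequence, very wide regions were rich in G, C and CG. Their median GC content was 62.9% against 55.4% in other shared regions, with 6.92 against 2.78 CG per 100 bases. CpG island criteria (GC over 50% and an observed-to-expected CG ratio over 0.6, over the whole region) were met by 61.5% (57.8 to 65.0%) against 33.3% (32.8 to 33.7%). Most of this came with promoters: very wide promoter regions met them in 75.6% (71.8 to 79.0%) and narrower ones in 66.6% (66.0 to 67.3%). In distal regions the shares were 15.2% (10.5 to 21.5%) and 7.99% (7.66 to 8.32%).

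Motifs were counted in 300 bp windows centred on the highest replicate 1 peak. At very wide promoters, CCGGAA was in 13.2% of windows (10.6 to 16.3%) against 22.7% at narrower promoters (22.1 to 23.3%), and CCAAT in 20.1% (16.9 to 23.7%) against 33.4% (32.8 to 34.1%). GCATGCG was in 1.49% against 5.36% and CACGTG in 5.59% against 9.47%. GGGCGG was about as common, in 55.7% (51.5 to 59.8%) against 59.3% (58.6 to 60.0%). Promoter motifs other than the GC box were thus rarer in these windows. The windows also lay farther from the starts, as given above for the highest peak, and what this did to the shares was not tested.

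GATA motifs (AGATAA or TGATAA) were in 47.6% of very wide distal windows (40.1 to 55.2%) against 33.6% of narrower distal ones (33.0 to 34.2%). At promoters they were in 13.2% against 12.2%. Distal regions of 400 to 799 bp held them in 54.2% (52.2 to 56.2%), so that the share was not particular to the very wide ones. The AP-1, RUNX and CAGCTG motifs were in 9.15%, 23.8% and 20.1% of very wide distal windows against 7.41%, 23.7% and 20.6% of narrower distal ones. At promoters they were in 2.23%, 9.31% and 16.0% of very wide windows against 3.64%, 12.4% and 16.8% of narrower ones.

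The replicates differed by class. After the median of replicate 1 over replicate 2 for all shared regions was set to 0 on the log2 scale, very wide regions had a median of -0.33, against 0.00 for other shared regions. Very wide promoter regions lay at -0.44 and very wide distal ones at 0.24. After this centring 18.8% of very wide promoter regions were higher in replicate 1, against 45.8% of narrower promoter regions, and 62.2% of very wide distal regions, against 53.7% of narrower ones. Regions of 400 to 799 bp showed the same split, at -0.25 at promoters and 0.35 at distal sites. With 1 library a replicate, whether this follows the tissue samples or their processing cannot be told apart.

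Among the regions highest in replicate 1, a broad replicate 2 peak enclosed a narrow replicate 1 peak at Slc3a2, near Cog3 and at Ptdss2. Near Rfx2 and at Mfsd2b the replicate 2 peaks were 314 to 435 bp wide. Slc3a2, the heavy chain gene of amino acid transporters, had 6.89 in replicate 1 (544 counts, a 200 bp peak) and 1.47 in replicate 2 (243 counts, over 996 bp), a centred log2 ratio of 2.04. The intronic regions near Cog3 (3.33 and 0.809) and near Rfx2 (4.97 and 1.35), and the promoters of Mfsd2b, the sphingosine-1-phosphate exporter gene of red cells (3.75 and 1.02), and Ptdss2, a phosphatidylserine synthase gene (5.43 and 1.58), came next.

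At the other end were mostly CG-rich promoters. Ppp1r12a, a myosin phosphatase subunit gene, had 0.747 in replicate 1 (59 counts) and 1.94 in replicate 2 (322 counts), a centred log2 ratio of -1.57. Eda (0.329 and 0.839), Eva1c (0.405 and 1.01), Pxdc1 (0.570 and 1.35) and an intronic region near Jag1, a Notch ligand gene (0.418 and 0.972), followed. These 5 held 5.64 to 11.3 CG per 100 bases, against 0.737 to 1.51 in the 5 at the replicate 1 end.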

How the data were processed

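The authors derived the peaks of each library from that library's filtered alignment to mm10, per notes deposited beside the files, and each deposited peak carries a signal value whose normalization is not stated. The deposited false discovery rates (FDR) were derived per stretch of bases. The deposited footprints were derived from the alignment and these rates, at 0.01 in every line. No source used here gives the aligner, the callers or their versions.

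The longer of the 2 peak lists per library was used. Peaks of both were merged by an overlap of 1 bp, and a region's value is that of its highest peak. Counts are values divided by the library's step, whole within 0.05 of a step for 100% of peaks. Footprints were counted by their middle, over the region's length. Annotation was GENCODE M21 on GRCm38.p6, with promoters within 1 kb of a protein-coding transcript start. Shares carry 95% Wilson intervals, which cover counting error only. The members, lists and motifs were chosen with earlier results of these data known. Named are the 10 widest regions, the 8 highest promoter and 8 highest distal ones by mean rank, the extremes of footprints and of the replicate ratio, regions at the limit, and listed genes with a region, of which some are not reported here; of 410 listed genes, 407 matched the annotation, and H19, Malat1 and Neat1 did not. Merging, counting and intervals were tested on simulated data. Alternatives were other widths, windows, merging gaps, lists, masks and value rules, and each library alone. Python 3.11.15, pandas 2.3.3, pysam 0.24.0 and SciPy 1.17.1 were used.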

Additional observations from a re-analysis of the deposited data

How the results depend on the processing

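Of 104 values recomputed under 17 alternatives, 67 stayed within the limits set for them, 32 moved and 5 crossed a ratio of 1. The causes were not tested beyond what each alternative's construction fixes. The number of very wide regions was 701 and that of genes 560. They were 358 and 326 with the shorter peak lists, 2157 and 1631 from 600 bp, 267 and 221 from 1000 bp, 247 and 213 where each replicate spanned 800 bp, and 2515 and 1968 when peaks within 150 bp were merged as well. They ranged from 98 to 648 regions and from 90 to 489 genes without replicate 2 and without replicate 1, where no peak of the other library was required. The promoter share (76.6%) and distal share (23.4%) were 84.9% and 15.1% with the shorter lists and 80.6% and 19.4% where each replicate spanned 800 bp. They were 70.3% and 29.7% with a window of 500 bp, 81.6% and 18.4% with 2500 bp, 61.5% and 38.5% by each gene's 5′ end alone, and 72.4 to 85.7% and 14.3 to 27.6% without 1 replicate. By the region's middle, an alternative chosen after seeing the data, they were 70.8% and 29.2%. The ratio of the median value of very wide to other shared regions was 0.861 in replicate 1 and 1.08 in replicate 2. It crossed 1 in replicate 2 with the shorter lists (0.967) and with the mean of the peak values (0.971). In replicate 1 it crossed 1 with the 150 bp merging (1.43, and 1.51 in replicate 2), with the sum of the peak values (1.50, and 1.88 in replicate 2) and without replicate 2 (1.29). That last ratio was to all narrower regions of replicate 1, shared or not. Footprints found in both replicates numbered 1.42 per kb in replicate 1, in place of 3.53, which stayed within the limit of 3.33. In replicate 2 they numbered 1.39 per kb, in place of 8.23, which did not. The median number of peaks in replicate 2 was 3 from 1000 bp. Dropping soft-masked regions or sex chromosomes moved no value. No paired analysis was possible because both libraries belong to 1 group. The median count per peak was 69 in replicate 1 and 126 in replicate 2, and what depth did to footprints was not tested.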
